A study of Mus musculus with 4 samples.

Results

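Fdps, Pmvk, Tm7sf2 and Dhcr7 encode 4 enzymes of the route from acetyl-CoA to isoprenoids and cholesterol, and they are 4 of the 4878 genes in the table analysed here. They were chosen by symbol, with their large difference between control and knockdown libraries already known. Their own differences are therefore given as a description, with no test. The libraries came from mouse embryonic fibroblasts at passages 5 to 8, grown in plates and transfected with the same lipid reagent in both groups. The control group (2 libraries) received a negative control siRNA, and the knockdown group (2 libraries) received an siRNA that the labels call Si-eIF1A (X+18). eIF1A is a translation initiation factor bound to the small ribosomal subunit while it searches an mRNA for the start codon. The labels read here name no mouse strain, embryonic age, time after transfection or separate cultures. The p-values below thus weigh the difference between groups against the spread of these samples within a group, estimated in part over all genes. That spread may be technical. RNA was measured by bulk MARS-seq, which counts the 3′ ends of polyadenylated RNA over all cells of a culture, and fewer cells of a type and less RNA per cell cannot be told apart in it.

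Cholesterol synthesis runs in an early and a late stage. In the early one, acetyl units are joined into mevalonate, which is phosphorylated, decarboxylated and condensed into farnesyl diphosphate, the branch point that also feeds ubiquinone, dolichol and the lipid anchors of small GTPases. In the late one, farnesyl diphosphate is turned into squalene, folded into lanosterol and trimmed to cholesterol by a series of demethylases, isomerases and reductases in the endoplasmic reticulum. Pmvk (phosphomevalonate kinase) and Fdps (farnesyl diphosphate synthase) act in the early stage. Tm7sf2, a sterol reductase of the middle steps, and Dhcr7, the reductase that makes cholesterol from its direct precursor, act in the late one. Genes of both stages are known targets of the SREBP transcription factors, which are released from the endoplasmic reticulum when sterols run low and bind DNA together with NF-Y and Sp1.

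Depth was similar in the 4 libraries. The deposited normalised counts were whole multiples of 1 step per library in 100% of values within 0.01 read, so reads could be recovered, and they came to 2152331 to 2595625 per library. The normalised values summed to 2148300 and 2106580 in controls but to 1737440 and 1597710 in knockdowns, so the totals moved with the groups, and each fold change of the 4 genes is also given with equal totals. The genes of eIF1A itself were not analysed here, so the knockdown was not checked. Of 14 fibroblast markers 4 were in the table (Vim, Fn1, Sparc and S100a4), and their summed level was 25807 to 28574 in controls and 14385 to 15980.4 in knockdowns. None of the listed epithelial, endothelial, leukocyte or adipocyte markers was in the table, and of the neural list only Nes was. Nes was lower too, with 219 and 229 in controls and 126 and 140 in knockdowns. Other defining fibroblast markers such as Col1a1 and Pdgfra were not analysed here. The part of this lower fibroblast marker level in the results below was not tested.

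The 4 genes lie at 3 chromosomal places. In GENCODE M21, on the mouse build mm10 (GRCm38), Fdps is on chromosome 3 from 89093588 to 89101959 on the minus strand and Pmvk on the same chromosome from 89454541 to 89469013 on the plus strand, with 352581 bases between them. Tm7sf2 is on chromosome 19 from 6062821 to 6068373 on the minus strand, and Dhcr7 on chromosome 7 from 143823145 to 143848410 on the plus strand. All 4 are protein-coding. Exons of a predicted gene, Gm43738, overlap the last 1000 bases of Fdps on the same strand, so its count is uncertain to that extent. No exon of another gene was found in the last 1000 bases of Pmvk, Tm7sf2 or Dhcr7, and no annotated pseudogene carries the name of any of them. The 3′ end of Vps51, on the same strand, lies at 6067842 inside the Tm7sf2 gene. What this overlap does to the count of either gene was not tested.

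The DNA before their start sites was read for motifs, since genes of both stages are known targets of SREBPs. RefSeq (GRCm38.p6) gave 6 windows of 250 bases before to 50 bases after a transcript start for 3 of the genes: 2 for Pmvk, 1 for Tm7sf2 and 3 for Dhcr7. Fdps had no entry. The sequences below show the 4 CCAAT boxes, the motif that NF-Y binds (letters CCAAT, or ATTGG when read on the opposite strand), as 25 bases each, 5′ to 3′ on the strand of the gene. The box itself is in capitals. The last line is the stretch before the third Dhcr7 start that no annotated exon of a coding transcript covers, with its Sp1 boxes (GGGCGG) and an E-box (CANNTG) in capitals.
Pmvk, chr3:89454395-89454419, plus strand: ctcaggttggCCAATtcacagcatc
Tm7sf2, chr19:6067883-6067907, minus strand: cccagcgctgATTGGctactgtgct
Dhcr7, chr7:143830119-143830143, plus strand: actgccttcaCCAATcacaggacgc
Dhcr7, chr7:143830155-143830179, plus strand: tccacttccgATTGGtcgtctgtga
Dhcr7, chr7:143829964-143830076, plus strand: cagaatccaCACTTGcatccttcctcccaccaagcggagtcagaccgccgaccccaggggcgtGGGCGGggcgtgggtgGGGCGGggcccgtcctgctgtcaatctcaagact

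Each of the 3 genes with an entry held a CCAAT box before at least 1 of its starts. It began 136 bases before the first Pmvk start and 47 bases before the Tm7sf2 start, where it lies in the last exon of the upstream gene Vps51. In the third Dhcr7 window the boxes began 85 and 49 bases before the start, with 3 Sp1 boxes at 187, 171 and 20 bases. This start, at 143830214, lies inside the gene, and the windows of the earlier Dhcr7 starts (143823167 and 143823399) held no CCAAT. Both boxes lie outside the exon-free stretch in the last line above, which ends 138 bases before the start. Tm7sf2 had Sp1 boxes at 123 and 114 bases, and neither Pmvk window had one. In all, 3 of the 6 windows held CCAAT. The same letters were in 37.4% of all 32851 windows of the reference and in 38.4% of the 4895 windows of genes tested. GGGCGG, in 3 of the 6, was in 35.7% and 68.4%, and CANNTG, in 5 of the 6, was in 72.3% and 61.1%. Both strands were searched, and no motif overlapped another in these windows.

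Of 4 rarer motifs no match was found in the 6 windows. These were TCACNCCAC, a form of the sterol regulatory element (1.24% of all windows), TGATGNAAT, a form of the ATF4 composite element (0.965%), TGACGTCA, the cAMP response element (1.79%), and the TISU element of mRNAs with very short leaders (0.633%). For these letters the absence speaks only of these windows. Among the other genes of the squalene to cholesterol stage, 6 had a window, and CCAAT and GGGCGG were each found in 6 of the 6, whereas TCACNCCAC was in none. The window of Acat2, of the early stage, held GGGCGG but not the NF-Y box. That box was found in 2 of 7 genes with a window for isoprenoid use and 7 of 11 for sterol regulation. It was in 10 of 13 for uptake and transport and 8 of 13 for fatty acid synthesis. These counts are of genes with a match in any of their windows, whereas the shares above are per window. No share per gene was computed over all genes, so the counts are not read against a background.

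**Figure D1:**
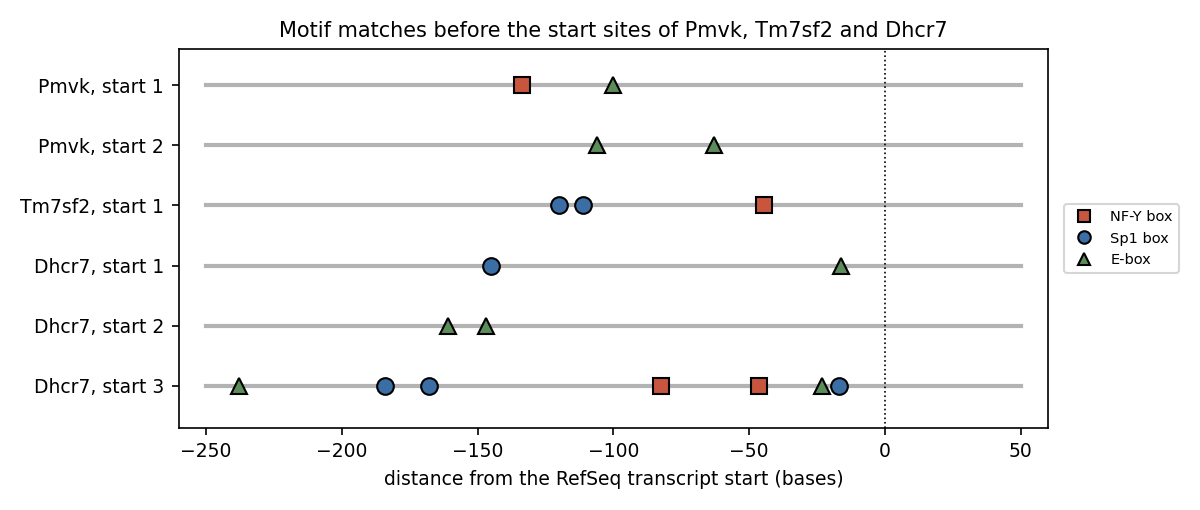
Motif matches in the 6 RefSeq windows of Pmvk, Tm7sf2 and Dhcr7, by distance in bases from the transcript start (dotted line), with a square for each NF-Y box, a circle for each Sp1 box and a triangle for each E-box, drawn at the centre of the match. NF-Y boxes are seen before 1 start of each gene, beginning at 136 bases for Pmvk, 47 for Tm7sf2 and 85 and 49 for Dhcr7 (start 3).

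All 4 mRNAs were lower in both knockdown libraries than in either control library. Values are normalised counts, given first per library and then as mean ± SD of n = 2 libraries. Each fold change was taken on log2(normalised count + 1). Standard errors come from the limma fit, which draws each gene's spread towards that of all genes at its level. They are not the spread of the gene's own libraries alone. For comparison, both knockdown libraries lay below both controls in 35.5% of the 4605 genes tested, and 21.6% of them were called lower (limma, adjusted p under 0.05). Since the 4 genes were chosen for this difference, nothing is read from their count.

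Fdps, whose product is the branch point to all longer isoprenoids, had 1067 and 1529.85 normalised counts in controls 1 and 2 and 178 and 164 in knockdowns 1 and 2. Both knockdown libraries were far below both controls, the lowest control being 6.01 times the highest knockdown. The group means were 1298 ± 327 and 171 ± 9.34, a 7.44-fold difference (log2 fold change −2.90, standard error 0.23). In reads, the control libraries had 1084 and 1885 and the knockdowns 220 and 242.

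Pmvk, which adds the second phosphate to mevalonate, had 444 and 651 normalised counts in controls and 96.1 and 94.4 in knockdowns. The controls differed from each other more than the knockdowns did, and the groups did not overlap. Means were 547 ± 146 and 95.2 ± 1.16, a 5.60-fold difference (log2 fold change −2.48, standard error 0.24), the smallest of these differences.

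Tm7sf2 had 767 and 665 normalised counts in controls and 114 and 55.7 in knockdowns. Here the knockdowns were the uneven pair, the first being 2.04 times the second. The lowest control was still 5.84 times the higher knockdown. On the log2 scale the SD was 0.15 in controls and 0.72 in knockdowns. Means were 716 ± 72.1 and 84.8 ± 41.1, an 8.86-fold difference (log2 fold change −3.15, standard error 0.28), the largest of these differences. It was −3.66 without knockdown replicate 1 and −2.64 without knockdown replicate 2.

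Dhcr7 was the gene with the fewest reads, with 247 and 284 in controls and 37 and 61 in knockdowns. In normalised counts, the controls had 243 and 230.5 and the knockdowns 29.9 and 41.4, again with no overlap. Means were 237 ± 8.91 and 35.7 ± 8.18, a 6.57-fold difference (log2 fold change −2.72, standard error 0.28).

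Counting error was small beside these differences. The ratio of control to knockdown reads, scaled to the libraries, was 7.75 for Fdps (95% exact counting interval 7.02 to 8.57), 5.86 for Pmvk (5.12 to 6.72), 8.64 for Tm7sf2 (7.51 to 9.99) and 6.53 for Dhcr7 (5.26 to 8.19). The intervals cover counting error only and take reads as independent molecules. When all libraries were scaled to equal totals, which puts the median log2 fold change over all genes at 0.34 in place of −0.01, the log2 fold changes were −2.54 for Fdps, −2.13 for Pmvk, −2.80 for Tm7sf2 and −2.37 for Dhcr7. Ordered from the largest fall among the 4605 genes tested, Tm7sf2 was at place 25, Fdps at 37, Dhcr7 at 50 and Pmvk at 67.

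**Figure D2:**
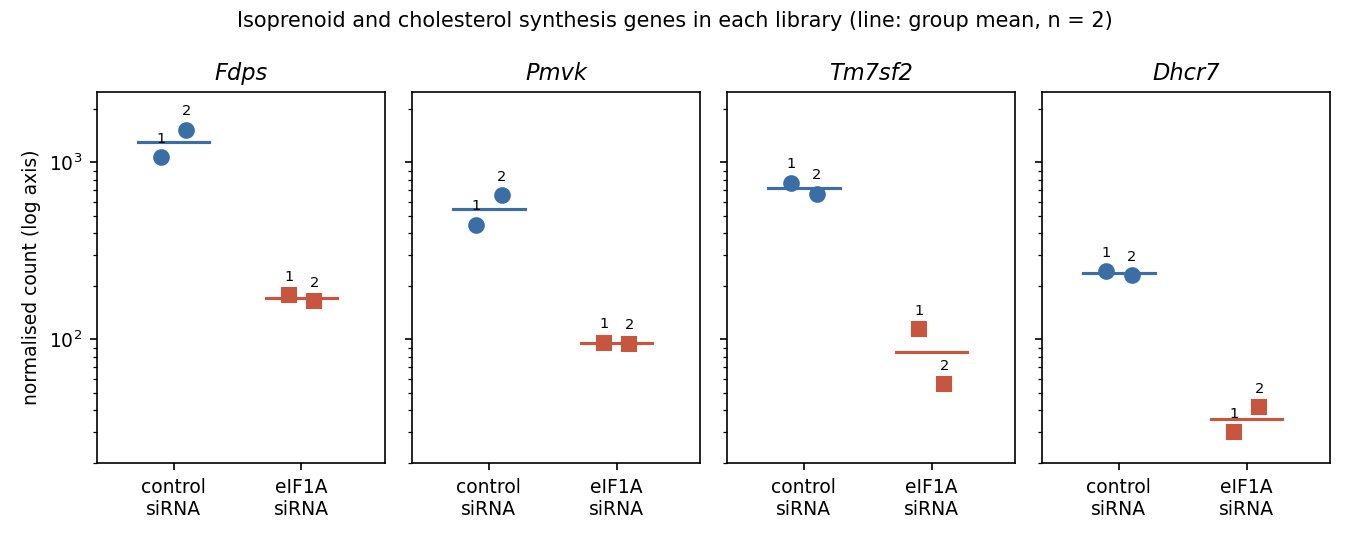
Normalised counts (log axis) of Fdps, Pmvk, Tm7sf2 and Dhcr7, with circles for control and squares for eIF1A siRNA libraries 1 and 2 and a line at each group mean (n = 2). In each gene both knockdown libraries lie below both controls; Fdps goes from a mean of 1298 to 171 and Dhcr7 from 237 to 35.7, and the knockdowns of Tm7sf2 lie farther apart (114 and 55.7) than those of Pmvk (96.1 and 94.4).

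The spread between replicates was not shared by the 4 genes. Control 2 was above control 1 for the early-stage genes, 1.43 times for Fdps and 1.47 times for Pmvk, and slightly below it for the late-stage genes, 0.867 times for Tm7sf2 and 0.948 times for Dhcr7. Knockdown 2 was 0.489 times knockdown 1 for Tm7sf2 but 1.39 times for Dhcr7. By distance between centred log2 profiles over the 4 libraries, Fdps and Pmvk were the closest pair (0.42), and Tm7sf2 was farthest from Dhcr7 (1.13) and Pmvk (1.10).

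Other genes had still more similar profiles. Nearest to Fdps were Sorcs1, a sorting receptor (distance 0.24), Ldha, which encodes lactate dehydrogenase A (0.30), and S100a4 (0.39), against a median distance of 2.96 over 4604 genes. Sorcs1 had only 1 read in each knockdown library, and its control to knockdown ratio of reads was 15.1 (3.76 to 131). Nearest to Pmvk were Pik3ip1, an inhibitor of phosphoinositide kinase signalling (0.20), Sorcs1 (0.27) and Maged2 (0.30). Tm7sf2 was nearest to Mgst3, a microsomal glutathione transferase (0.32), Mcf2l (0.34) and Aatk (0.42), and Dhcr7 to Pfkm, which encodes muscle phosphofructokinase (0.21), Arhgef19 (0.23) and the matrix gene Ecm1 (0.28). The profiles hold the group difference for which the 4 genes were chosen, and all these nearest genes were lower in knockdowns. Distances far below the median therefore follow in part from that choice. These are descriptions over 4 libraries.

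Transcript length and GC content were not used directly to choose the 4 genes. The longest annotated coding transcripts of Fdps, Pmvk and Tm7sf2 measured 1382, 1194 and 1498 bases and that of Dhcr7 2815, against a median of 3086 bases for the genes tested. GC content was 54.5% for Fdps, 57.0% for Pmvk, 56.5% for Tm7sf2 and 52.8% for Dhcr7, each above the median of 51.5%. Dhcr7 was near the middle in both, above 43.2% of the genes tested in length and 57.5% in GC content. With a trend on GC content removed, a setting added after the data were seen, the log2 fold changes were −2.71 for Fdps, −2.14 for Pmvk, −2.83 for Tm7sf2 and −2.63 for Dhcr7. These differences were smaller than those given above, and over all genes 778 were called lower, against 996. The 5′ UTRs, the leaders that the scanning subunit crosses, had no common length. They were 265, 252, 122 and 507 bases for Fdps, Pmvk, Tm7sf2 and Dhcr7, around a median of 185.

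The rest of the synthesis pathway was tested in the same fit over all genes. Of 22 enzymes listed for both stages, 13 were in the table, and 9, among them Hmgcs1, Idi1 and Sqle, were not analysed here. Without the 4 chosen genes, 8 were tested, of which 5 fell and 1 rose (limma with Benjamini-Hochberg adjustment over 4605 genes), against 21.6% called lower and 15.9% called higher among all genes. Their median log2 fold change was −1.43, against −0.01 for all genes. Of the 4 falls in the late stage, 2 were called at equal totals and 2 without knockdown replicate 1.

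In the early stage, 1 of 2 other tested genes fell and 1 did not pass. Acat2, the cytosolic thiolase that starts the pathway, had 746 and 749.9 normalised counts in controls and 192 and 194 in knockdowns. The replicates were nearly equal in both groups, and the fall was 3.86-fold (adjusted p = 1.13e-06).

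In the late stage, 4 of 6 other tested genes fell and 1 rose. Nsdhl, a dehydrogenase of the demethylation complex, had 68.9 and 109.6 normalised counts in controls and 13.7 and 22.4 in knockdowns (4.73-fold lower, adjusted p = 1.46e-04). Ebp, the sterol isomerase, went from 451 and 477 to 173 and 99.2 (3.52-fold, adjusted p = 2.35e-05). Both genes were lower in each knockdown library than in either control. Msmo1, the methyl sterol oxidase that works with Nsdhl, went from 91.5 and 133 to 48.4 and 57.7 (2.07-fold, adjusted p = 0.0101), and this call was lost without control replicate 2 (0.0882), without knockdown replicate 1 (0.0681) and at equal totals (0.0763). Lss, which closes the lanosterol rings, had 22 and 14 reads in controls and 5 in each knockdown (3.56-fold lower, adjusted p = 0.0341). Leaving out control replicate 1 (0.191), knockdown replicate 1 (0.0769) or knockdown replicate 2 (0.103) ended the Lss call, as did equal totals (0.0712) and DESeq2 on recovered reads (0.0558).

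Tm7sf2 and Lbr, which encode reductases for the same middle step, differed in direction. Tm7sf2 had a log2 fold change of −3.15, whereas Lbr, the lamin B receptor, which carries the same reductase activity in the inner nuclear membrane, had 71.8 and 64.9 normalised counts in controls and 96.9 and 151 in knockdowns. Both knockdowns were above both controls, a 1.76-fold rise (adjusted p = 0.0349) where 15.9% of all genes tested were called higher and 32.4% had both knockdowns above both controls. The Lbr call was lost without control replicate 2 (0.0614) and without knockdown replicate 2 (0.415, log2 fold change 0.50), and with the replicate number as a block (0.0529). It was also lost with the GC trend removed (0.266, log2 fold change 0.43), with quantile normalisation (0.0526) and without the mean-variance trend (0.0886). Exons of Dnah14 overlap the last 1000 bases of Lbr on the opposite strand, and the strand setting of the counting is not known here. Sc5d, the desaturase before Dhcr7, had 19.7 and 17.0 in controls and 18.6 and 8.15 in knockdowns, a difference that missed the threshold (adjusted p = 0.463). Fdft1, squalene synthase, was under the filter, with 6 and 4 reads in controls and 4 and 1 in knockdowns (ratio 2.41, 0.751 to 8.99).

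**Figure D3:**
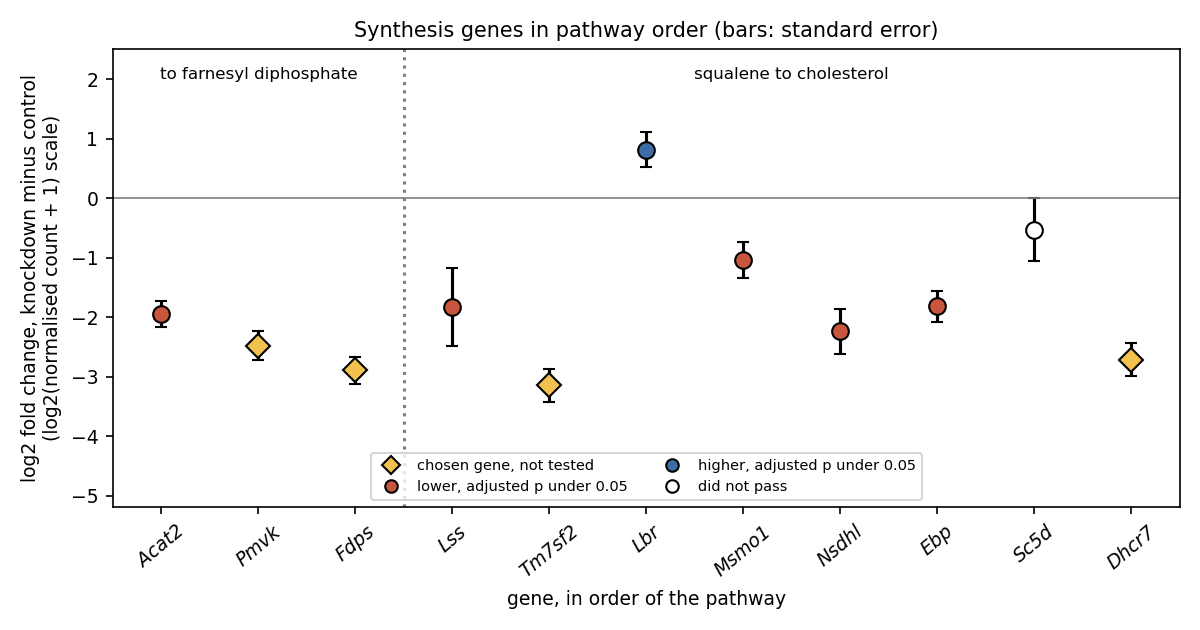
Log2 fold change (knockdown minus control) of the synthesis genes named in the text, in pathway order, with bars for the standard error of the limma fit. Diamonds mark the 4 chosen genes, which carry no test, and circles mark 7 others (red lower, blue higher, white not passed). From Acat2 to Dhcr7 the points lie below 0 except Lbr at 0.81, and Sc5d (−0.53) is the circle that did not pass. The early-stage gene that did not pass is not drawn.

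Of 24 genes listed that use farnesyl diphosphate and its products, 9 were in the table and tested, and 2 fell and 2 rose, with a median log2 fold change of 0.35. These counts are near the shares over all genes (21.6% lower and 15.9% higher), so they set nothing apart about the list. The calls named here are subunits of the prenyltransferases, which attach isoprenoids to proteins. Fntb, the catalytic subunit of farnesyltransferase, went from 607 and 503 to 335 and 287 normalised counts (1.78-fold lower, adjusted p = 0.00571), and Rabggta, a subunit of the transferase of Rab GTPases, from 243 and 184 to 96.1 and 119 (1.97-fold lower, 0.00553). Fnta, the subunit that farnesyltransferase shares with a related transferase, went from 236 and 347 to 423 and 552 (1.68-fold higher, 0.0191). Each of these 3 calls was lost without some library: Fntb without knockdown replicate 2, Rabggta without knockdown replicate 1, and Fnta without control replicate 1 or knockdown replicate 2 (limma, adjusted p from 0.058 to 0.194). The Fnta call was also lost with the GC trend removed (0.107), and those of Fntb (0.0552) and Fnta (0.110) without the mean-variance trend. At equal totals the list had 4 genes called higher, and neither fall was called.

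Of 30 genes listed that regulate sterol supply, 17 were tested, and 4 fell and 2 rose, with a median log2 fold change of 0.16. These counts too are near the 21.6% lower and 15.9% higher over all genes. Srebf1, which encodes SREBP-1, went from 827 and 830.3 to 362 and 403 (log2 fold change −1.11, limma adjusted p = 3.75e-04), with exons of Rai1 on the opposite strand at its 3′ end.

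Among the other genes of sterol sensing, Nr1h2, the sterol-sensing nuclear receptor LXR beta, went from 1386 and 962 to 523 and 425 (2.45-fold lower, adjusted p = 2.11e-04) and has an annotated pseudogene. Erlin1, a membrane protein of the endoplasmic reticulum that takes part in protein degradation there, went from 47.2 and 26.8 to 123 and 162 (3.88-fold higher, 1.18e-04), and all knockdown values were above all control values. A single gene of the list was called higher without control replicate 1, knockdown replicate 1 or knockdown replicate 2. Scap, the SREBP escort, had 557 and 308 in controls and 534 and 403 in knockdowns (adjusted p = 0.661), and its positive log2 fold change of 0.16 was −0.26 without control replicate 2 and −0.04 without knockdown replicate 1. Insig1, the retention protein of the same complex, had 6.89 and 17.0 in controls and 4.04 and 9.51 in knockdowns (0.439), so both overlapped between groups. Srebf2 and Insig2 were not analysed here.

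Among genes of sterol uptake, transport, efflux and esterification, 6 of 16 tested fell and the other 10 did not pass, where 21.6% of all genes were called lower. The median log2 fold change was −0.49. Pltp, the phospholipid transfer protein, went from 870.02 and 597 normalised counts to 156 and 189 (4.18-fold lower, adjusted p = 1.97e-06), with exons of Ctsa on the opposite strand at its 3′ end. Scarb1, the HDL receptor, went from 1063 and 831 to 458 and 351 (2.34-fold, 2.87e-04). Gramd1a, which moves cholesterol from the plasma membrane to the endoplasmic reticulum, was 2.04-fold lower (0.00242), a call lost with the GC trend removed (0.107). Tspo, a protein of the outer mitochondrial membrane, was 2.19-fold lower (0.00387), and that call was lost with quantile normalisation (0.0658), without the mean-variance trend (0.0791) and with the GC trend removed (0.0583). Osbpl5, a lipid transfer protein, was 1.60-fold lower (0.0477), a call that ended when control replicate 1 (0.286), knockdown replicate 1 (0.222) or knockdown replicate 2 (0.0992) was left out. Its call was also lost with the replicate block (0.0730), TMM scaling (0.0683), edgeR (0.0580), DESeq2 (0.100) and equal totals (0.356), among others.

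Fatty acid synthesis, the other branch that SREBPs are known to drive, had 10 of 17 tested genes lower and 2 higher, against 21.6% and 15.9% of all genes, with a median log2 fold change of −1.15. The other 5 did not pass, among them Acaca (log2 fold change −0.31, limma adjusted p = 0.453) and Fasn, the fatty acid synthase (−0.82, 0.141). The falls named below are those of smallest p. The largest fall was that of Acss2, the cytosolic acetyl-CoA synthetase, from 145 and 142 normalised counts to 12.9 and 11.5 (10.9-fold, adjusted p = 3.14e-07). Slc25a1, which exports the citrate that becomes cytosolic acetyl-CoA, went from 1956 and 1950.25 to 487 and 486 (4.01-fold, 5.10e-07). Pcyt2, of phosphatidylethanolamine synthesis, was 4.63-fold lower, Scd2, a desaturase, 3.77-fold, Fads1, another desaturase, 2.85-fold and Aacs, which supplies acetoacetyl-CoA, 2.65-fold. A single member was called higher without control replicate 2, knockdown replicate 1 or knockdown replicate 2.

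**Figure D4:**
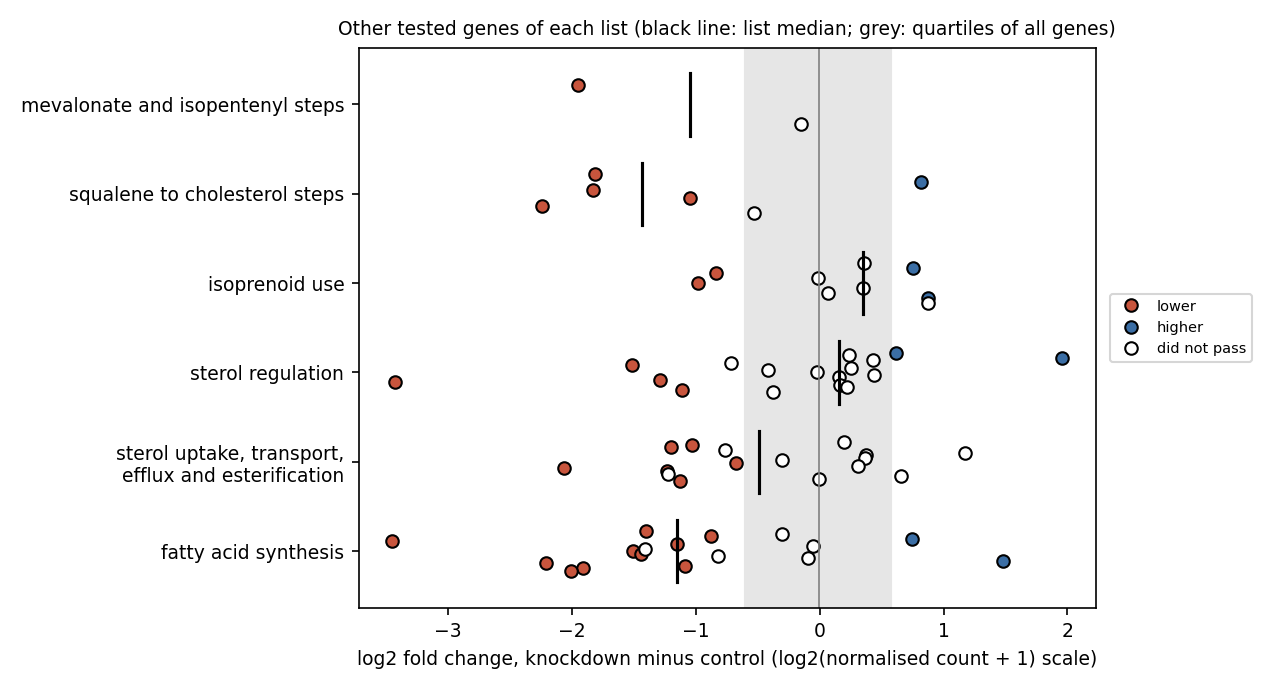
Log2 fold change (knockdown minus control) of the other tested genes in each list, 1 point per gene (red lower, blue higher, white not passed), with a black line at each list's median and a grey band from the lower to the upper quartile of all genes. The squalene to cholesterol and fatty acid lists have medians of −1.43 and −1.15, and the isoprenoid use list lies on both sides of 0 with a median of 0.35.

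The differences of the 4 genes kept their direction in each of 16 other ways of processing the values. Since the genes were chosen for a large difference, this could hardly turn out otherwise and is not read as support. Changes of filter, the replicate block and leaving out the mean-variance trend left these log2 fold changes as they were. The log2 fold change of Fdps ran from −3.16 to −2.54, that of Pmvk from −2.76 to −2.13, that of Tm7sf2 from −3.66 to −2.64 and that of Dhcr7 from −2.95 to −2.37. The order of the genes was not fixed. For example, Pmvk and Dhcr7 changed places without knockdown replicate 1 (−2.50 and −2.49), and Dhcr7 passed Tm7sf2 without knockdown replicate 2 (−2.95 and −2.64).

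**Figure D5:**
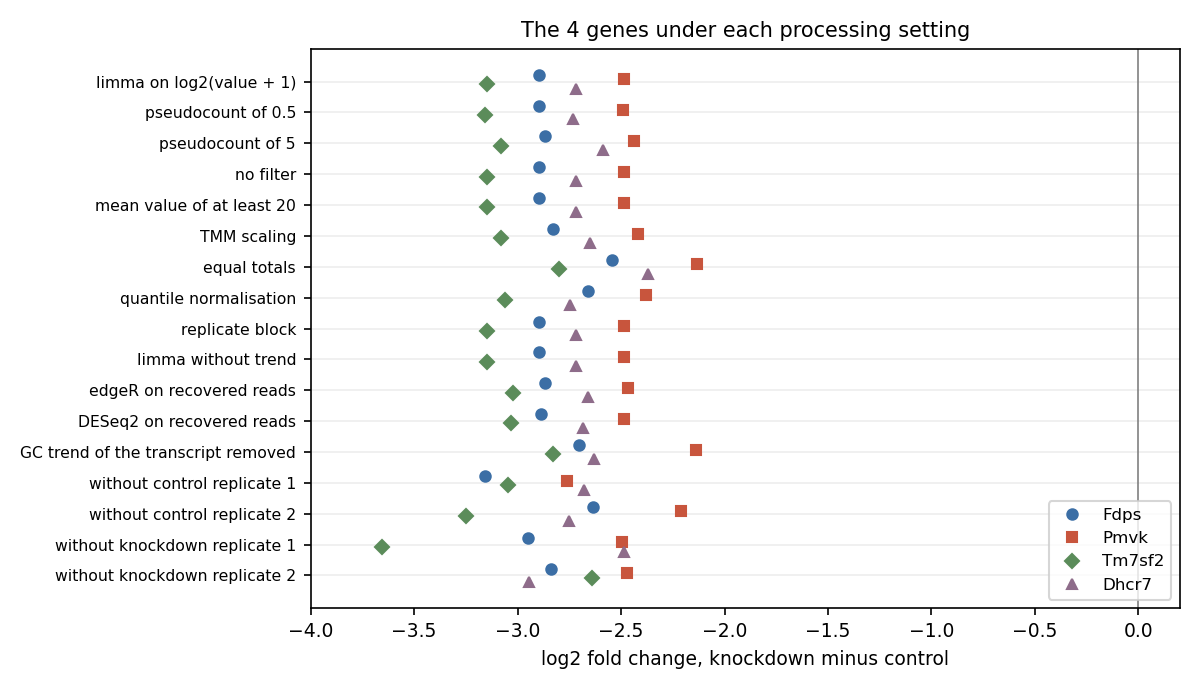
Log2 fold change of Fdps, Pmvk, Tm7sf2 and Dhcr7 (1 marker shape per gene) under limma on log2(value + 1), the setting of the report, in the top line and 16 other settings below it. All points lie between −3.66 and −2.13, and the leftmost is Tm7sf2 without knockdown replicate 1.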

How the data were processed

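Bulk MARS-seq values of 4 libraries of mouse embryonic fibroblasts were analysed, 2 per group, as the sample titles group them. The authors deposited normalised counts, a signal per gene, for 4878 genes. Tools in the submitters' processing notes, listed there without roles, were STAR, HTSeq, DESeq2, cutadapt 1.8.3 and bcl2fastq 2.17.1.14, with the build mm10. How genes were selected, whether molecular identifiers were collapsed and which strand setting was used could not be learned from the sources used here. Every gene deposited had reads in each of the 4 libraries, so a gene without reads in any library could not be analysed. Reads were recovered from the step of each deposited column. Values were tested as log2(value + 1) in limma 3.58.1 (R 4.3.3), with the prior variance following mean level, for 4605 genes with a mean of at least 5 (273 were below), and Benjamini-Hochberg adjusted p under 0.05 was called. The fit, which called 733 genes higher and 996 lower, was tested on simulated data. edgeR 4.0.16 and DESeq2 1.42.0 on recovered reads were alternatives, beside other pseudocounts, filters, scalings, a replicate block and leaving out each library. The 4 genes and all lists were chosen with earlier results of these data known. Genes named are the 4, all synthesis genes in the table, up to 6 called members of smallest p in each other list, 6 sterol regulators wherever present, and the 3 nearest profiles per gene. Acaca and Fasn were named outside this rule. Some genes under this rule are not reported here. Symbols were matched to GENCODE M21 for 4873 genes, 132 of them through an older symbol, and promoters to RefSeq for 3 of the 4 genes. A planned protein comparison was not made, since protein sequences were not used here.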

Additional observations from a re-analysis of the deposited data

How the results depend on the processing

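With equal totals the log2 fold changes were −2.54 for Fdps, −2.13 for Pmvk and −2.37 for Dhcr7, and with the GC trend removed Pmvk was −2.14. Over all genes, 733 were higher and 996 lower. Equal totals gave 1299 and 603, quantile normalisation 805 and 807, TMM scaling 799 and 892, limma without trend 501 and 655, and leaving out a library 438 to 758 higher and 715 to 987 lower. The deviations of same-numbered libraries were weakly correlated (r = −0.129 over 4605 genes, 2 pairs), and the numbers were not taken as a pairing. The replicate block gave 641 higher and 918 lower and ended the calls of Lbr (0.0529) and Osbpl5 (0.0730), and no other call of a gene named in the report. A crossed replicate block, added after the data were seen, gave 891 and 1154. In the squalene to cholesterol list, 2 others were lower at equal totals and 2 to 3 with a library left out. Its count of higher genes was 0 with quantile normalisation, the replicate block, no trend or the GC trend removed, and 0 to 1 with a library left out. For isoprenoid use, 0 were lower at equal totals, 1 without trend and 1 to 2 with a library left out, while 4 were higher at equal totals, 1 with the GC trend removed and 1 to 2 with a library left out. For sterol regulation, 4 were higher at equal totals, 1 without trend and 1 to 2 with a library left out. For uptake and transport, 1 was higher at equal totals. For fatty acid synthesis, 1 was higher without trend or with the GC trend removed, and 1 to 2 with a library left out. With a library left out Sc5d was −1.08 to 0.018 and Scap −0.26 to 0.59. The cause of these changes was not tested. With 2 libraries a group, 1 left-out library leaves a single sample, assumed to vary like the other group. Low reads limit Lss, Fdft1 and Insig1.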

Other observations

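Fdps and Pmvk lie on the same stretch of chromosome 3, and the genes of the table between them were looked at after those values were known. There were 8, all tested, and 7 fell while Cks1b, a cell cycle gene, had a log2 fold change of 0.15 (limma, adjusted p = 0.638). The median of the 8 was −0.96, and 21.6% of all genes tested were called lower. Fam189b had the largest fall, from 703 and 429 normalised counts in controls to 121 and 101 in knockdowns (4.93-fold, adjusted p = 1.31e-06). Pbxip1 fell 2.72-fold, Shc1, an adaptor of receptor tyrosine kinases, 2.25-fold, and Thbs3, a thrombospondin, 2.02-fold. Adam15 fell 1.87-fold and Pygo2 1.60-fold. The transcripts of 7 of the 8 had a GC content above the median of 51.5%, the highest being 59.7% for Adam15, and Cks1b had 49.2%. With the GC trend removed 5 of the 8 were called lower, as at equal totals. Vps51, whose last exon covers the start of Tm7sf2, fell 2.01-fold (adjusted p = 0.00387), from 1069.81 and 583 to 397 and 387.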
